A study of Mus musculus with 4 samples.

Results

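The subunits of the mitochondrial respiratory chain were examined at the RNA level in whole lenses of newborn mice labelled Hsf4 knockout or wild type. Members were all genes whose symbol was Nduf followed by a, b, c, s or v and digits, Sdha to Sdhd, and all genes whose symbol began with Uqcr, with Cox4 to Cox8 or with Atp5. Of the 18193 genes that had a probe set with 1 gene symbol on the arrays, 80 met this rule, and the brightest probe set by mean over the 4 arrays stood for each gene. They comprised 33 genes of complex I, 4 of complex II, 8 of complex III, 18 of complex IV and 17 of complex V. Ndufa4 was counted with complex IV, of which its protein is a subunit. Genes that the rule names but that had no probe set with a single symbol were not analysed here. Subunits encoded by mitochondrial DNA lie outside the rule.

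The series set 2 lens samples labelled Hsf4 knockout against 2 labelled wild type, each hybridised to its own Affymetrix mouse expression array, and asks which lens RNAs differ without heat shock transcription factor 4. All 4 samples came from male 129S3 mice at postnatal day 0.5 according to the labels, which name no other allele. The labels give neither the deleted part of Hsf4 nor the number of lenses or animals in a sample, and they do not say that samples of a group came from separate animals. The p-values therefore rest on array-to-array spread that may be technical, and the number of arrays limits the precision. Both groups carry the numbers 1 and 2, and values below are given in that order. Levels are quantile-normalized intensities of a probe set, and a level can be compared between arrays but not between genes. Log2 differences are knockout minus wild type of log2(intensity + 16). Each adjusted p comes from limma after Benjamini-Hochberg adjustment across the 11595 genes tested, and the threshold was 0.05.

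The probe set of Hsf4 measured 1212 and 413 on the arrays labelled knockout, against 505 and 138 on those labelled wild type. Where it lies relative to the deletion is unknown here, so it checks nothing, and every direction below is that of the arrays as labelled. Xist, the RNA of the inactive X chromosome, measured 260 and 9.01 on the knockout arrays, against 605 and 58.0 on the wild-type arrays, although all samples are labelled male. The Y-linked genes Eif2s3y and Kdm5d had signal on every array, Eif2s3y at 101 and 161 on the knockout arrays and 60.4 and 208 on the wild-type arrays, and Kdm5d at 41.6 and 43.2 on the knockout arrays and 22.2 and 54.1 on the wild-type arrays. Lens fibre RNA was present on every array, with Cryaa, alpha A-crystallin, at 8768 and 9184 on the knockout arrays and 8512 on each wild-type array. Of the 10 lens fibre markers, 2 were higher and 2 lower without overlap, against 12.7% and 14.3% of all genes. The lower ones were Bfsp1, filensin, at 2186 and 2060 on the knockout arrays, against 5220 and 3785 on the wild-type arrays, and Dnase2b, the lens nuclease, at 143 and 262, against 402 and 579 on the wild-type arrays. Neither passed the threshold. Of 16 striated muscle markers tested, 14 (87.5%) were lower on the knockout arrays without overlap, against 14.3% of all genes. Actc1, Myl1 and Acta1 fell past the threshold, which 0.0345% of all genes passed in either direction. The median marker measured 10.4 and 7.73 on the knockout arrays, below the 13.0 that a gene's mean had to reach to be tested. Markers such as Actc1 and Myl1 were thus tested only through the wild-type arrays, and their count and p-values support nothing. The summed level of the markers was 350 and 390 on the knockout arrays, against 3322 and 1706 on the wild-type arrays. Of 9 fibroblast and pericyte markers, 7 were lower without overlap, against 14.3% of all genes. Lum was among them, at 10.9 and 2.10 on the knockout arrays, both below 13.0, against 27.1 and 52.5 on the wild-type arrays. Lum was thus tested only through the wild-type arrays, and it supports nothing in this count or in the median that follows. The median log2 difference of the 9 markers was -1.33, and none passed the threshold. They summed to 1535 and 1228 on the knockout arrays, against 2099 and 2554 on the wild-type arrays, and Rgs5, a pericyte gene with a log2 difference of 0.02, held much of the sum. Neural retina markers summed to 1891 and 602 on the knockout arrays, against 1653 and 1573 on the wild-type arrays. Lens epithelium markers summed to 3161 and 3219 on the knockout arrays, against 3584 and 3303 on the wild-type arrays. Erythroid markers went the other way, at 131 and 502 on the knockout arrays, against 90.1 and 155 on the wild-type arrays. The erythroid sum includes Hba-a2, whose wild-type mean log2 value lay below the filter. Fewer cells of a type and less RNA per cell cannot be told apart in such whole-tissue RNA.

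The respiratory chain passes electrons from NADH through complex I, or from succinate through complex II, to ubiquinone, and on through complex III and cytochrome c to complex IV, which reduces oxygen. Complexes I, III and IV pump protons across the inner mitochondrial membrane, and complex V, ATP synthase, uses their return flow to make ATP. In the lens, mitochondria are kept by the epithelium and the outermost fibre cells, while maturing fibres degrade them together with the nucleus and other organelles. Cytochrome c oxidase, complex IV, has several subunits with one isoform for heart and skeletal muscle and another for most other tissues.

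RNA levels of the respiratory chain differed little between the knockout and wild-type arrays. Of the 80 members, 77 passed the filter on low intensity, a mean log2 value of at least 4.86, and Ndufb4, Cox7b2 and Cox8b did not. None of the 77 passed limma's threshold in either direction, against 0.0345% of all genes tested. Ndufs5 alone had an unadjusted p under 0.05, where 2.35% of all genes had one. No member was 2-fold apart, against 1.12% of all genes, and 71 of the 77 differed by less than 0.5 on the log2 scale. The median log2 difference was 0.05 over the members, with an interquartile range of -0.05 to 0.20. Over all genes tested the median was -0.01, with an interquartile range of -0.21 to 0.18.

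These p-values do not show that the levels were equal. The limma adjusted p was 1 for every member. The 95% interval of a member's log2 difference, not adjusted for the number of genes, extended by a median of 0.59 to either side of the estimate. For 64 of the 77 members it lay wholly between -1 and 1 and so left out a 2-fold difference in either direction, and for 76 it included 0. An exact permutation test of 2 arrays against 2 cannot give a two-sided p below 0.333, so none is given for single genes.

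**Figure D1:**
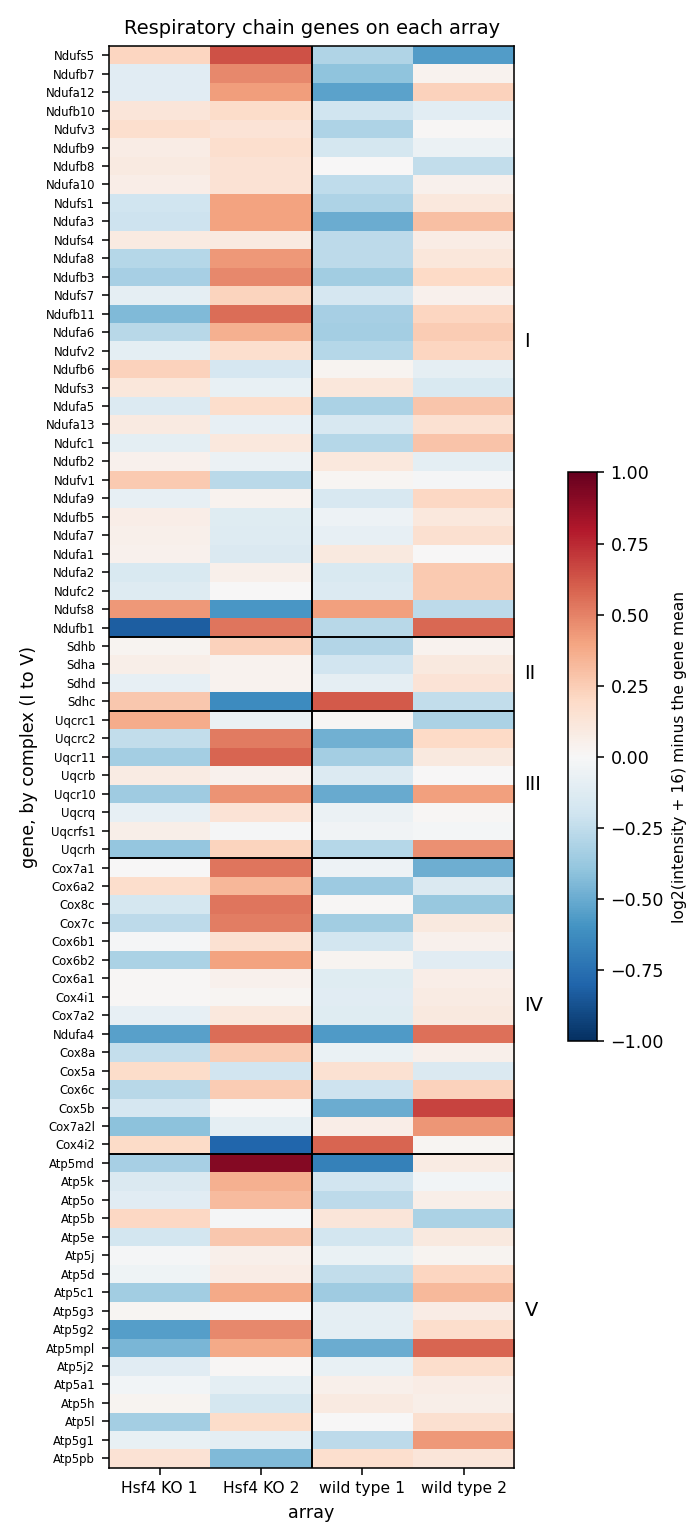
Each row is 1 of the 77 tested respiratory chain genes, grouped by complex and ordered by log2 difference within it, and each column is 1 array, with Hsf4 knockout (KO) left of wild type. Colour is log2(intensity + 16) minus the mean of the gene over the 4 arrays, and 49 of the 77 genes are redder on array 2 than on array 1 in both genotypes.

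The members also differed between the arrays of a genotype, as the heat map of values by array shows. Their median intensity was 1101 and 1291 on the knockout arrays, against 965 and 1253 on the wild-type arrays. The median absolute log2 difference was 0.13 between genotypes, and between numbers it was 0.31 in knockout and 0.32 in wild type. Over all genes these values were 0.20, 0.38 and 0.31. A difference between genotypes compares means of 2 arrays and one between numbers compares single arrays, so the second is larger by construction. Array 2 was higher than array 1 in both genotypes for 49 members (63.6%), against 32.2% of all genes. The median log2 difference of array 2 minus array 1 was 0.16 in knockout and 0.24 in wild type, against -0.03 and 0.02 over all genes. What the number stands for is not given in the labels.

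The balance of small differences depended on how the arrays were scaled. After quantile normalization 51 members were higher and 26 lower in mean on the knockout arrays. Values as deposited had an all-gene median difference of -0.46, and median-centred values one of -0.28. Relative to either shift, 30 of 76 members were higher and 46 lower. No direction is therefore given to the chain as a whole. Groups did not overlap for 11 members that were higher (14.3% of the 77) and 3 that were lower (3.90%), against 12.7% and 14.3% of all genes. Among genes with a mean intensity of at least 500, these were 8 and 3 of the 63 members, against 12.2% and 12.6% of 1032 genes. Within both numbers 33 members were higher and 11 lower, against 26.1% and 27.5% of all genes, and 33 had opposite signs in the numbers. Cox7a1 is among the members higher without overlap, and Cox7a1 and Cox7c are among those higher within both numbers. The wild-type mean log2 values of Cox7a1 and Cox7c lay below the filter. Both were thus tested only through the knockout arrays, and they support nothing in these counts. The median difference of the members was 0.08 within number 1 and 0.02 within number 2.

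**Figure D2:**
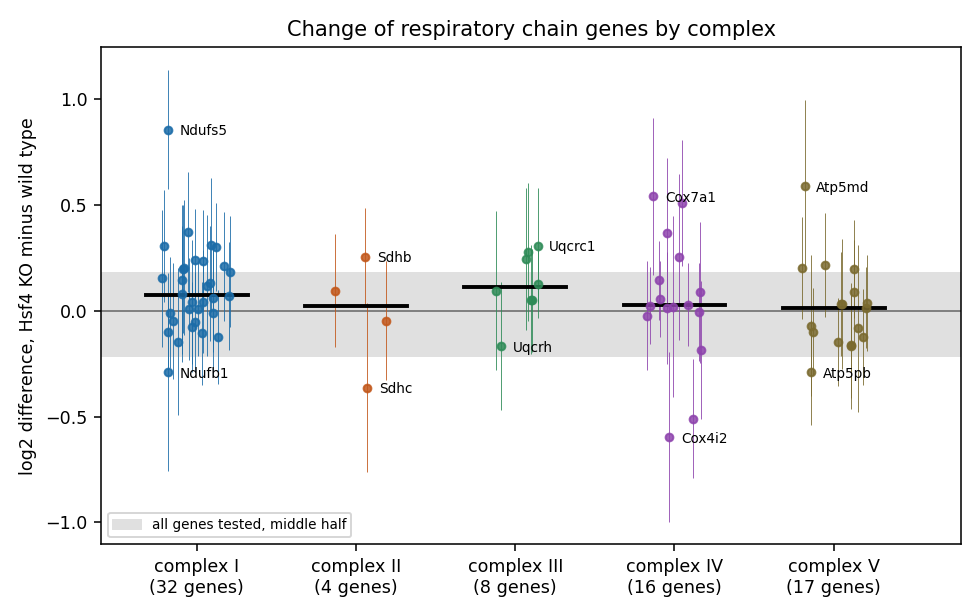
Points are log2 differences (knockout minus wild type) of the 77 tested genes by complex with their standard errors, black bars are medians, and the grey band is the interquartile range of all genes tested. The medians run from 0.01 for complex V to 0.11 for complex III, all inside the band, and Ndufs5 of complex I stands highest at 0.85.

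By complex, the median log2 difference was 0.07 for the 32 tested genes of complex I, 0.02 for the 4 of complex II, 0.11 for the 8 of complex III, 0.03 for the 16 of complex IV and 0.01 for the 17 of complex V. The medians moved at least as much between arrays of one genotype, with a pooled SD of 0.18, 0.11, 0.22, 0.19 and 0.14 for complexes I to V (2 arrays per group). In the plot of differences by complex, all 5 medians lie within the interquartile range of all genes. Members without overlap were 7 higher and 0 lower in complex I, none in complex II, 2 and 0 in complex III, 2 and 1 in complex IV, and 0 and 2 in complex V, where 12.7% of all genes were higher and 14.3% lower. Over all complexes these counts became 0 higher and 5 lower with values as deposited, and 1 and 12 with median centring. Cox7a1, 1 of the 2 higher genes of complex IV, was tested only through the knockout arrays. Differences between complexes were not tested.

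Complex I, the NADH dehydrogenase, held the member with the largest difference. Ndufs5, an accessory subunit on the intermembrane side of the complex, measured 669 and 904 on the knockout arrays, against 464 and 386 on the wild-type arrays. Both knockout arrays were above both wild-type arrays, and the gap was wider for number 2. The log2 difference was 0.85 (SE 0.28, 95% interval 0.22 to 1.48, unadjusted p = 0.0132, limma adjusted p = 1). It was 0.51 for array 1 of each group and 1.20 for array 2, and it stayed between 0.71 and 0.87 under the other scalings. It was the single member whose interval left out 0, and 2.35% of all genes had an unadjusted p under 0.05. Only 1 probe set carried the symbol alone, so no other probe set bears on the value. In GRCm38.p6, Ndufs5 lies at chr4:123712710-123718186.

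The 250 bases before the annotated start of Ndufs5 are shown because it had the largest difference, beside those of Cox7a2l, the lowest tested member without overlap. Those of Cox6a1 and Cox7a1 show a broadly expressed and a muscle-type subunit of cytochrome c oxidase. The sequences are RefSeq's for GRCm38.p6, 5′ to 3′ on the strand of the gene, and capitals mark a match on either strand to a motif that was searched. The window of Ndufs5 is chr4:123718187-123718436 on the minus strand, that of Cox7a2l chr17:83514334-83514583 on the minus strand, that of Cox6a1 chr5:115348959-115349208 on the minus strand and that of Cox7a1 chr7:30183921-30184170 on the plus strand.
Ndufs5: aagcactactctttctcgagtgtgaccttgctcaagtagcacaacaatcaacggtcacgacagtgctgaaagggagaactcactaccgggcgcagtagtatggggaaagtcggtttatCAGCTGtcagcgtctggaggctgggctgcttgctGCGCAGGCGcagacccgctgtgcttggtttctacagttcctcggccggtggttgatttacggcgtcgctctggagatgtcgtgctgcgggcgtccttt
Cox7a2l: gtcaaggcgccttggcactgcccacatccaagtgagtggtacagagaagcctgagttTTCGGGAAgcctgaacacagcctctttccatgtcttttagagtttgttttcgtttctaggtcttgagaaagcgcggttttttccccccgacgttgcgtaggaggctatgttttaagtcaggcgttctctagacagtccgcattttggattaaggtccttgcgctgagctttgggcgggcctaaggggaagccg
Cox6a1: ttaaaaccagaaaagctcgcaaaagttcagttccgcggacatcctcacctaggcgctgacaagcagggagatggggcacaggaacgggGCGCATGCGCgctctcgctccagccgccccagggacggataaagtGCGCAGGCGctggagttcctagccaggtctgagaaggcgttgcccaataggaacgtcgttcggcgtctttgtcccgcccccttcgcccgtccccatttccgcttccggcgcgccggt
Cox7a1: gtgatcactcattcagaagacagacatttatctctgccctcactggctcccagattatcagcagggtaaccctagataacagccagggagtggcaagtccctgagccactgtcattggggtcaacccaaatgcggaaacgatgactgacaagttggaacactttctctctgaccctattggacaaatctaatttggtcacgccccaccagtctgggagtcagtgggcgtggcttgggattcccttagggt

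In Ndufs5 the capitals are an E-box, CAGCTG, that begins 132 bases before the start, and a relaxed site of nuclear respiratory factor 1 (NRF1), GCGCANGCG, that begins 98 bases before it. NRF1 is a transcription factor of many respiratory chain genes. In Cox6a1 they are 2 relaxed NRF1 stretches, and the one farther from the start holds the stricter site GCGCATGCG, which overlaps itself on both strands. In Cox7a2l they are a pair of heat shock units, TTCNNGAA, the kind of letters that heat shock factors bind in longer arrays, and the window of Cox7a1 held no match.

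The RefSeq table held a promoter, 250 bases before to 50 after the start, for 66 of the 80 members, and both strands were searched. The relaxed NRF1 site, which includes every stricter one, was found in 18 members (27.3%), against 7.03% of all 27025 genes with a promoter and 15.5% of the 9405 that were also tested here. The stricter NRF1 site was found in 7 members (10.6%), against 1.95% of all genes and 4.11% of those tested. The YY1 site AAGATGGCG was in 6 members (9.09%), against 1.64% of all genes and 3.57% of those tested, and the GABP site CCGGAAGTG in 2 (3.03%), against 2.25% and 4.91%. Of the heat shock pairs, GAANNTTC and TTCNNGAA were each in 4 members (6.06%), against 9.04% and 9.60% of all genes and 6.82% and 7.90% of those tested. The E-box was in 6 members (9.09%), against 18.3% and 18.2%, and the MEF2 site CTATTTATA in 0, against 0.492% and 0.415%. The median log2 difference was 0.08 over the 17 tested members with a relaxed NRF1 site and 0.04 over the tested members without one. These matches describe letters in a window and show no binding.

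The core subunits of complex I, which bind NADH, flavin, iron-sulfur clusters and ubiquinone, all had groups that overlapped. Ndufs1, an iron-sulfur subunit of the arm that oxidises NADH, measured 329 and 509 on the knockout arrays and 304 and 411 on the wild-type arrays (log2 difference 0.20, SE 0.32). Ndufv1, which binds NADH and flavin, measured 524 and 357 in knockout and 440 and 432 in wild type (-0.01, SE 0.29). The sign of Ndufv1 differed between the numbers, and that of Ndufs1 did not. Ndufv2, an iron-sulfur partner of Ndufv1, had a log2 difference of 0.07, and Ndufs3 and Ndufs7, nearer to the ubiquinone site, had 0.04 and 0.13. Ndufs8, an iron-sulfur subunit of the connecting part, measured 2340 and 1152 in knockout and 2304 and 1438 in wild type (-0.15, SE 0.35). Both genotypes were higher on array 1 at this probe set, while 4 other probe sets of Ndufs8 had log2 differences of 0.30 to 0.40 and a dim one -0.70, so its sign depends on the probe set. Of the 6 core genes measured, 3 were higher within both numbers and 0 lower, with a median of 0.06.

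Among the accessory subunits of complex I, 7 genes including Ndufs5 had both knockout arrays above both wild-type arrays, where 12.7% of all genes did. With median centring 1 member of the whole chain was higher without overlap, and with values as deposited 0 were. Ndufv3, of the arm that oxidises NADH, measured 2758 and 2694 in knockout, against 1978 and 2474 in wild type (log2 difference 0.30, SE 0.21, 95% interval -0.17 to 0.77). Ndufb10, of the membrane arm, measured 532 and 554 in knockout, against 423 and 450 in wild type (0.30, SE 0.26), with 0.32 and 0.29 within the numbers. The knockout arrays were close to each other in both genes, and both intervals included 0. Ndufb9, also of the membrane arm, measured 977 and 1043 in knockout, against 819 and 893 in wild type (0.24, SE 0.24), and a dimmer probe set of it gave 0.29. Ndufb8, Ndufa10 and Ndufs4 had log2 differences of 0.24, 0.21 and 0.18. In mice, loss of Ndufs4, which stabilises the NADH arm, gives a fatal brain disease. Its used probe set had its groups apart by little, at 732 and 733 in knockout against 570 and 725 in wild type, and dimmer probe sets gave -0.20 and -0.18.

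Ndufb7, a membrane arm subunit on the intermembrane side, measured 1083 and 1645 in knockout and 882 and 1200 in wild type (log2 difference 0.37, SE 0.28), with overlap because array 2 was higher in both genotypes. Ndufa12, of the NADH arm, measured 989 and 1434 in knockout and 731 and 1253 in wild type (0.31, SE 0.31), and other probe sets of it gave 0.76 and -0.08. At the lower end, Ndufb1, a small membrane subunit, measured 65.1 and 192 in knockout and 102 and 198 in wild type (-0.29, SE 0.47). For Ndufb1 the step between the numbers exceeded the difference between genotypes. Ndufc2 and Ndufa1, also of the membrane arm, had -0.13 and -0.10, and no gene of complex I was lower without overlap. The 14 other tested accessory genes lay between -0.11 (Ndufa2) and 0.19 (Ndufa3), all with overlap, and Ndufb4, below the filter, measured 7.18 and 5.38 in knockout and 2.57 and 9.35 in wild type. The 9 genes named Ndufs or Ndufv had a median of 0.13, the 12 named Ndufa and counted with complex I 0.03, and the 10 tested genes named Ndufb 0.13.

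Complex II, succinate dehydrogenase, is also an enzyme of the citric acid cycle. Sdha, its flavin subunit, measured 610 and 601 in knockout and 510 and 630 in wild type (log2 difference 0.09, SE 0.27). Sdhb, its iron-sulfur subunit, measured 1819 and 2102 in knockout and 1457 and 1838 in wild type (0.25, SE 0.23). Each knockout value of Sdhb was above the wild-type value of the same number, with 0.32 and 0.19 within the numbers, yet the groups overlapped. Sdhc, a membrane anchor, measured 356 and 184 in knockout and 456 and 244 in wild type (-0.36, SE 0.40), lower within both numbers. Its other probe set measured 88.0 and 106 in knockout, against 151 and 158 in wild type, a log2 difference of -0.60 without overlap. Sdhd, the other anchor, had -0.05 and opposite signs in the numbers. A second probe set of Sdha, also lower without overlap, had -0.26 where the used one had 0.09.

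In complex III, which oxidises ubiquinol and reduces cytochrome c, 5 of the 8 genes were higher within both numbers and 1, Uqcrh, was lower, against 26.1% and 27.5% of all genes. Uqcrc1, a core protein, measured 1101 and 808 in knockout and 854 and 675 in wild type (log2 difference 0.31, SE 0.27). Uqcrc2, the other core protein, measured 1041 and 1778 in knockout and 883 and 1423 in wild type (0.28, SE 0.32). Its other probe set gave 0.005, with opposite signs in the numbers. Uqcrc1 was higher on array 1 and Uqcrc2 on array 2 in both genotypes, and the groups of both overlapped. Uqcrfs1, the Rieske iron-sulfur protein that takes electrons from ubiquinol, measured 860 and 819 in knockout, against 807 and 815 in wild type (0.05, SE 0.24). Uqcrb, a small subunit near a ubiquinone site, measured 6336 and 6171 in knockout, against 5451 and 6017 in wild type (0.13, SE 0.16). A dimmer probe set of Uqcrb gave -0.27 and was lower within both numbers, so its sign depends on the probe set. Uqcrfs1 and Uqcrb were the 2 genes of complex III without overlap at the used probe sets. In Uqcrfs1 the nearest knockout and wild-type arrays were 819 and 815. Uqcrh, the acidic hinge protein next to cytochrome c1, measured 1388 and 2131 in knockout and 1491 and 2509 in wild type (-0.17, SE 0.30), and its other probe set gave 0.01. The small subunits Uqcrq, Uqcr10 and Uqcr11 had 0.05, 0.09 and 0.24, with overlap. Cytochrome c1 itself, the product of Cyc1, lies outside the symbol rule. Cyc1 measured 798 and 866 in knockout, against 661 and 752 in wild type (0.23, SE 0.25), and did not overlap.

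In complex IV, cytochrome c oxidase, the common subunits were nearly level between the groups. Cox4i1, the common form of the largest nuclear-encoded subunit, measured 2690 and 2708 in knockout and 2474 and 2831 in wild type (log2 difference 0.03, SE 0.20, 95% interval -0.41 to 0.47). Its counterpart Cox4i2, known from lung, measured 42.0 and 13.3 in knockout and 59.7 and 35.2 in wild type (-0.60, SE 0.40). Cox4i2 was lower within both numbers but its groups overlapped. Cox5b, a zinc-binding subunit, measured 2920 and 3253 in knockout and 2329 and 5270 in wild type (-0.18, SE 0.33), with 0.32 within number 1 and -0.69 within number 2. The other 3 bright probe sets of Cox5b had 0.17 to 0.26. Cox5a, Cox6b1, Cox6c and Ndufa4 had log2 differences of -0.01, 0.14, -0.02 and 0.02. The probe sets that carried the symbol Cox7c alone were dim, the brighter at 9.63 and 27.7 in knockout and 8.10 and 16.8 in wild type.

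Cox7a2l, a protein that joins complexes III and IV into supercomplexes, was the lowest tested member without overlap. It measured 418 and 522 in knockout, against 588 and 769 in wild type, a log2 difference of -0.51 (SE 0.28, 95% interval -1.14 to 0.12, limma adjusted p = 1). The values within the numbers were close, at -0.48 and -0.54. The other 2 probe sets of Cox7a2l had 0.24 and -0.02, and the mean over all 3 gave -0.10. The probe sets of this gene thus had both signs. Cox7a2l lies at chr17:83501917-83514333 in GRCm38.p6, and its promoter is the sequence above with the heat shock pair.

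**Figure D3:**
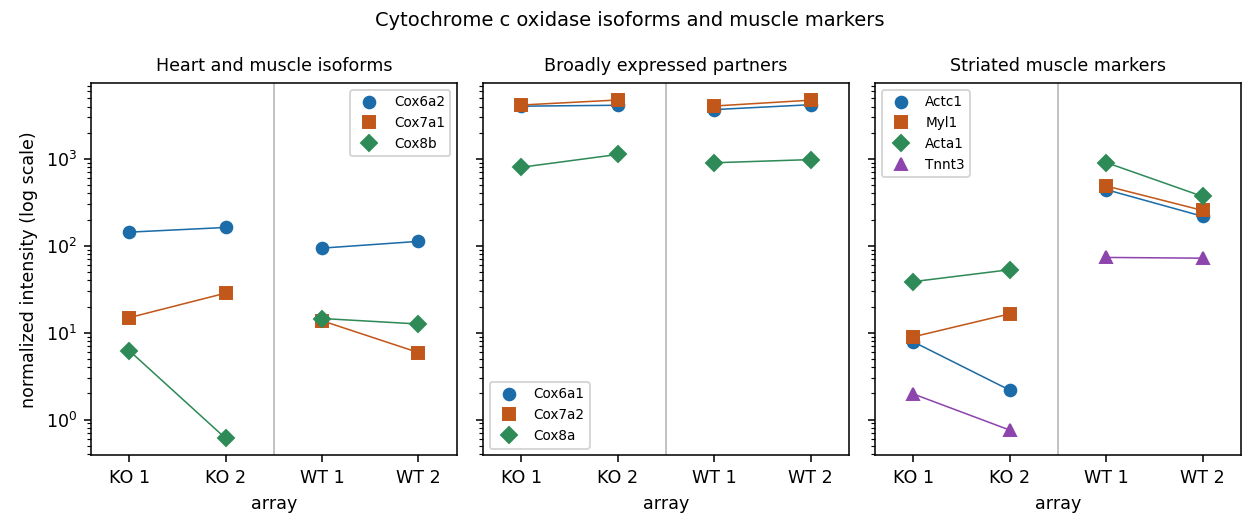
Normalized intensity (log axis) on each array, with the Hsf4 knockout (KO) arrays left of the wild-type (WT) arrays, for heart and muscle isoforms of cytochrome c oxidase, their broadly expressed partners, and 4 striated muscle markers. Lines join the arrays of a group, and levels should be compared between arrays of one gene only; Cox6a2 lies higher in KO, Cox7a1 and Cox8b lie near or below the intensity filter, the partners lie level, and the muscle markers lie lower in KO.

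None of the heart and muscle isoforms of complex IV passed the threshold. Cox6a2 measured 144 and 163 in knockout, against 94.0 and 112 in wild type, a log2 difference of 0.51 (SE 0.30, 95% interval -0.16 to 1.17). Both knockout arrays of Cox6a2 were above both wild-type arrays by a similar step within each number, 0.54 and 0.48, while a second probe set close to the filter had -0.01. Cox7a1 measured 14.9 and 28.5 in knockout, against 13.7 and 5.90 in wild type, with a log2 difference of 0.06 within number 1 and 1.02 within number 2. Its wild-type mean log2 value lay below the filter, so Cox7a1 was tested only through the knockout arrays where it was higher, and its difference supports nothing. Cox8b, below the filter and not tested, measured 6.20 and 0.606 in knockout, against 14.6 and 12.6 in wild type, a log2 difference of -0.62 without overlap.

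The broadly expressed partners were nearly level. Cox6a1 measured 4048 and 4148 in knockout and 3698 and 4209 in wild type (log2 difference 0.05, SE 0.18). Cox7a2 measured 4173 and 4771 in knockout and 4066 and 4746 in wild type (0.02, SE 0.18), and Cox8a measured 802 and 1126 in knockout and 904 and 982 in wild type (0.01, SE 0.26). All 3 partners overlapped. The striated muscle markers had a median log2 difference of -2.09, a median that includes markers tested only through the wild-type arrays. Of the heart and muscle isoforms, Cox6a2 had 0.51, Cox7a1 0.54 and Cox8b, which was not tested, -0.62. Actc1, cardiac actin, measured 7.84 and 2.18 in knockout, against 443 and 218 in wild type (limma adjusted p = 0.00719). Myl1, a fast myosin light chain, measured 8.96 and 16.5 in knockout, against 489 and 255 in wild type, and Acta1, skeletal actin, 38.7 and 53.1 against 909 and 370 in wild type. Tnnt3 and Tnni2, fast troponins, lay below 3 on both knockout arrays and between 46.9 and 101 on the wild-type arrays. The knockout mean log2 values of Actc1, Myl1, Tnnt3 and Tnni2 lay below the filter. These genes passed it only through the wild-type arrays where they were higher, and their differences support nothing. The part of muscle RNA in the values of the isoforms was not tested.

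The isoforms known from testis had groups that overlapped. Cox6b2 measured 75.2 and 133 in knockout and 99.7 and 88.6 in wild type (log2 difference 0.09, SE 0.33), and Cox8c measured 29.2 and 58.1 in knockout and 35.4 and 23.3 in wild type (0.36, SE 0.36). Both were lower within number 1 and higher within number 2. Cox7b2 was below the filter on every array.

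In complex V, ATP synthase, the subunits of the catalytic head had small differences of either sign. Atp5a1, the alpha subunit (now also called Atp5f1a), measured 1279 and 1212 in knockout, against 1345 and 1374 in wild type (log2 difference -0.13, SE 0.22), and did not overlap. Other probe sets of Atp5a1 gave 0.15 and 0.44. Atp5b, the catalytic beta subunit, measured 2371 and 2032 in knockout and 2225 and 1643 in wild type (0.20, SE 0.23). It was higher within both numbers, and its groups overlapped. The gamma, delta and epsilon subunits of the central stalk, Atp5c1, Atp5d and Atp5e, had 0.03, 0.03 and 0.09.

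The subunits of the peripheral stalk and the membrane part were likewise near 0, with 1 exception. Atp5pb, the b subunit of the stalk, measured 2016 and 1336 in knockout and 2046 and 1982 in wild type (log2 difference -0.29, SE 0.25), so that array 2 of the knockout alone stood apart. Atp5h, subunit d of the stalk, measured 2060 and 1795 in knockout, against 2156 and 2113 in wild type (-0.15, SE 0.21), without overlap, and its second probe set gave 0.04. Atp5o, which joins the stalk to the head, had 0.20. Atp5g1, Atp5g2 and Atp5g3, which encode the same mature c subunit of the rotating ring, had -0.17, -0.07 and 0.01. Of the small membrane subunits, Atp5k (subunit e) had 0.22 and Atp5l (subunit g) -0.16, and Atp5j2 (subunit f) and Atp5mpl had -0.10 and -0.08. Atp5j, of the stalk, had 0.04. Atp5md, a small subunit where synthase dimers form, was the exception. It measured 924 and 2219 in knockout and 726 and 1237 in wild type (0.59, SE 0.40, 95% interval -0.31 to 1.49, limma adjusted p = 1). It was higher within both numbers, by 0.34 and 0.84, but wild-type array 2 exceeded knockout array 1. Without knockout array 1 the difference was 1.21, and without knockout array 2 it was -0.036.

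**Figure D4:**
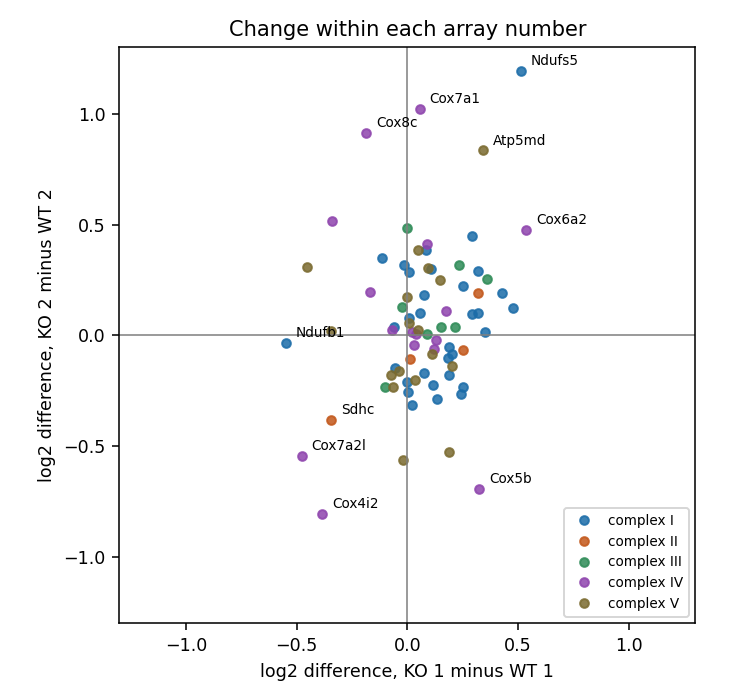
Each point is 1 of the 77 tested genes, with the log2 difference of knockout minus wild type within number 1 on the horizontal axis and within number 2 on the vertical axis, coloured by complex. The upper right quadrant holds 33 genes, the lower left 11 and the other two 33, and Ndufs5 lies farthest to the upper right.

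The plot of differences within each number shows how far the arrays repeat each other. Few members lay far from 0 with the same sign in both numbers. Ndufs5, Atp5md and Cox6a2 were higher by at least 0.34 within both, and Sdhc, Cox7a2l and Cox4i2 lower by at least 0.34 within both. The limit of 0.34 was set after the values were seen. The share of all genes past it was not counted, so these genes are not shown to stand out. Cox7a1, with 0.06 and 1.02, and Cox8c, with -0.19 and 0.92, had their larger difference within number 2, and Cox5b had opposite signs. For 63 of the 77 members (81.8%) the mean absolute difference between numbers exceeded that between genotypes, against 73.0% of all genes, a measure that compares single arrays with means of 2.

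**Figure D5:**
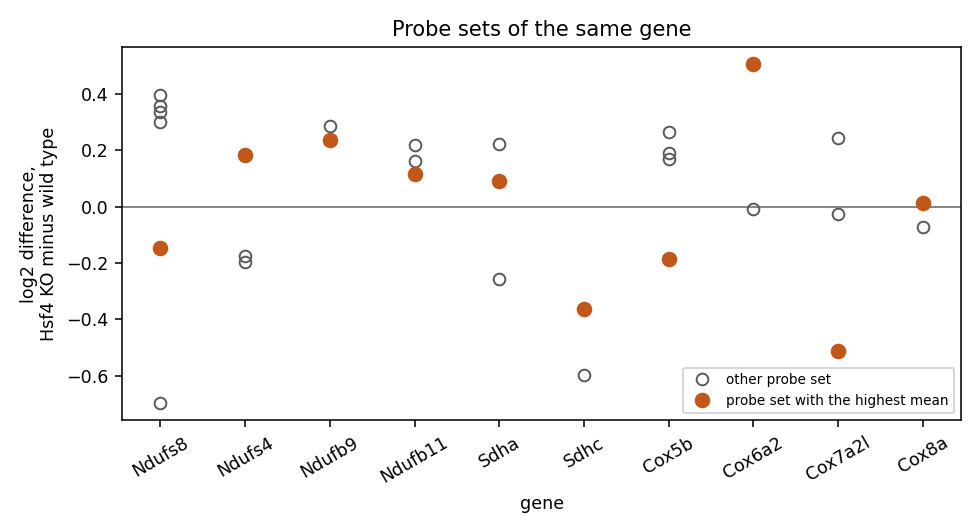
Log2 difference (knockout minus wild type) of each probe set above the filter for 10 members; filled points are the probe sets used here and open points the others of the same gene. Ndufs8, Ndufs4, Sdha, Cox5b, Cox6a2, Cox7a2l and Cox8a have probe sets on both sides of 0, while Ndufb9, Ndufb11 and Sdhc do not.

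Probe sets of the same gene often had different signs. The 80 members had 163 probe sets, of which 141 were above the filter. In 41 members several were above it, and their log2 differences had both signs in 23 of these and 1 sign in 18. The median range between probe sets of a gene was 0.22, and 1 gene, Ndufs8, had a range above 1. The plot of probe sets of the same gene shows 10 members chosen after their values were seen. A single probe set was all that 32 members had, Ndufs5, Cox7a1 and Atp5md among them. Of the used probe sets, 17 had a suffix, _s_at or _x_at, with which Affymetrix marks probes that can match other transcripts. Signal from gene copies or other sequences cannot be told apart there. The used probe set of Cox7a2l, with the suffix _x_at, was among them.

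Other genes of the pathway were described from lists of assembly factors, electron carriers, citric acid cycle enzymes, regulators of mitochondrial genes and proteins of the mitochondrial membranes. None of the genes on these lists passed limma's threshold. The median log2 difference was 0.06 over 14 assembly factors of complex I, 0.14 over 4 of complex II, 0.10 over 5 of complex III, 0.00 over 18 of complex IV and 0.01 over 5 of complex V. The median over all genes was -0.01. Groups did not overlap for 0 higher and 2 lower genes of the complex I list, 1 and 1 of the complex III list, 5 and 3 of the complex IV list and none of the others. Among all genes these shares were 12.7% higher and 14.3% lower, and the same shares stand behind the counts for the lists that follow.

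Sco2, which delivers copper to cytochrome c oxidase, had the largest difference among assembly factors. It measured 51.9 and 102 in knockout, against 26.6 and 33.2 in wild type, a log2 difference of 0.96 (SE 0.35, unadjusted p = 0.0210, limma adjusted p = 1). Both knockout arrays were above both wild-type arrays. Surf1 and Coa5, other assembly factors of complex IV, had 0.36 and 0.32, also without overlap. Ttc19, which acts in the upkeep of complex III, measured 27.0 and 9.89 in knockout, against 35.9 and 37.2 in wild type (-0.66, SE 0.36). Timmdc1 and Ndufaf6, assembly factors of complex I, had -0.36 and -0.33 without overlap, and Ndufaf5 had 0.35 with overlap. Sdhaf1 of complex II and Tmem70 of complex V had 0.22 and -0.26.

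Among 16 tested enzymes of pyruvate oxidation and the citric acid cycle, 6 (37.5%) were higher and 0 lower without overlap, against 12.7% and 14.3% of all genes, and the median was -0.01. Pdhb, a subunit of pyruvate dehydrogenase, measured 467 and 614 in knockout, against 259 and 378 in wild type, a log2 difference of 0.75 (SE 0.31, unadjusted p = 0.0360, limma adjusted p = 1). Pdha1, the subunit that pairs with it, had -0.19 with overlap. Sucla2, a succinyl-CoA ligase subunit, measured 552 and 598 in knockout, against 449 and 463 in wild type (0.32, SE 0.26), and Idh3g, an isocitrate dehydrogenase subunit, had 0.21. The enzymes thus shared no single direction in their means, with 8 higher and 8 lower.

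The 15 tested electron carriers and ubiquinone genes had a median of -0.01, with 2 higher and 1 lower without overlap. Dhodh, a pyrimidine synthesis enzyme that passes electrons to ubiquinone, measured 37.9 and 23.4 in knockout, against 46.8 and 53.1 in wild type (log2 difference -0.51, SE 0.32). Etfb, of the electron transfer flavoprotein, had 0.30 without overlap, and Coq5, of ubiquinone synthesis, 0.30 with overlap. Cycs, cytochrome c, measured 1457 and 1277 in knockout and 1239 and 1322 in wild type (0.09, SE 0.23).

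The 14 regulators of mitochondrial genes had a median of 0.12, with 3 higher and 1 lower without overlap. Ppargc1a, a coactivator of mitochondrial gene expression, measured 11.3 and 46.5 in knockout and 11.7 and 9.05 in wild type. Array 2 of the knockout alone was high for Ppargc1a, and the other 3 arrays lay below the filter. Polrmt, the mitochondrial RNA polymerase, measured 77.3 and 80.7 in knockout, against 58.9 and 55.1 in wild type (0.38, SE 0.29), and Esrrg, an orphan nuclear receptor, had -0.44, each without overlap. Among 17 proteins of the mitochondrial membranes and protein import, the median was 0.01, with 2 higher and 1 lower without overlap. Hspa9, the mitochondrial Hsp70, was the lower one, at 312 and 402 in knockout, against 415 and 475 in wild type (-0.31, SE 0.29), and Timm44, which tethers it to the import channel, had -0.36 with overlap.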

How the data were processed

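RNA of 2 Hsf4 knockout and 2 wild-type lens samples was measured on 1 Affymetrix array each. The authors deposited a linear intensity for every probe set of an array, made with software not given in the sources used here. These deposited intensities were not on one scale, since their medians were 18.5 and 6.58 on the knockout arrays, against 21.4 and 10.5 on the wild-type arrays.

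Quantile normalization used limma 3.58.1 (R 4.3.3) and was followed by log2(intensity + 16). Of 45101 probe sets, 64 controls were left out. Of the rest, 34945 had 1 symbol, 932 several and 9160 none, by the platform annotation checked against the RefSeq table through gene identifiers, which changed 0 symbols. The brightest probe set by mean stood for each of 18193 genes. The 11595 genes whose mean log2 value reached 4.86 (intensity 13.0), the median of all probe sets but the controls, were tested with limma's moderated linear model with a trend of the variance. The procedure was tested on simulated data. No column of values was left unmapped to a sample.

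Groups and numbers come from the labels, which do not say that a number marks a litter or day. The fit had no term for the number. Members and gene lists were chosen with earlier results of these data known. By rule the text names members past the threshold, the 3 with the lowest p in each direction per complex, tissue isoforms and their partners, core and catalytic subunits, and up to 3 genes per list. The remaining genes were named after their values were seen. Scalings, filters, offsets, the variance trend, a block for the number, the combination of probe sets, the symbols, the place of Ndufa4 and each array left out were varied.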

Additional observations from a re-analysis of the deposited data

How the results depend on the processing

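Of 42 single-gene results under 18 alternatives, 661 of 669 values kept their sign, or lay within 1 SE of 0 in both fits, and their side of the threshold. Sign changes within 1 SE of 0 in both fits numbered 66. With the array number as a replicate block, 200 genes (1.72% of those tested) passed in place of 4, and 2 members passed in place of 0: Ndufs5 (0.85, adjusted p = 0.000629) and Atp5md (0.59, adjusted p = 0.0192). The samples share only a number, deviations from the group means correlated between same-numbered arrays with r = 0.434 across 11595 genes, and the block left 1 residual degree of freedom per gene. Genes passing were 0 with values as deposited, 12 with median centring, 7 with trimmed-mean scaling, 0 without the filter and 0 when the probe sets of a gene were averaged. Members higher without overlap (11) became 0 with values as deposited, 1 with median centring and 19 of 141 with every probe set. Members lower without overlap (3) became 5, 12 and 7 under those settings and 1 with averaged probe sets. The complex II median (0.02) was -0.13 with values as deposited and with median centring, each relative to the all-gene shift.

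Leaving out 1 array, the lone array of its group being assumed to vary like the others, gave 4 to 262 genes passing and 0 to 1 members. The 262, and the 1 member (Atp5md), were without knockout array 1. Members without overlap were then 16 to 45 higher and 8 to 24 lower, as 1 array against 2 overlaps less often. Medians ranged from -0.05 to 0.20 for all members, -0.045 to 0.29 for complex I, 0.0060 to 0.15 for II, -0.08 to 0.20 for III, -0.088 to 0.23 for IV and -0.14 to 0.10 for V. Other genes changed sign only within 1 SE of 0 in both fits, Ndufb1 (-0.97 to 0.39) among them. Sign changes beyond that occurred for Atp5c1 (-0.33 to 0.39), Atp5md (-0.036 to 1.21), Atp5pb (-0.59 to 0.0018) and Ndufs8 (-0.65 to 0.36), each without knockout array 2. Cox5b (-0.77 to 0.40) had one without wild-type array 2. The cause of these changes was not tested.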

Other observations

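Relatives of the chain that the symbol rule leaves out were measured as well. Ndufa4l2, a relative of Ndufa4 known as a hypoxia-induced gene, measured 101 and 74.7 on the knockout arrays, against 261 and 108 on the wild-type arrays (log2 difference -0.84, SE 0.40, limma adjusted p = 1), without overlap and with -1.24 and -0.45 within the numbers. Ndufab1, the mitochondrial acyl carrier protein and a subunit of complex I, measured 675 and 860 in knockout and 724 and 836 in wild type (-0.03). Atpif1, the inhibitor of ATP synthase, measured 824 and 823 in knockout and 808 and 1091 in wild type (-0.19), with overlap.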
